A study of Homo sapiens with 4 samples.

Results

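The genes described here build or modify the cornified envelope of stratified epithelium, or encode the small calcium-binding S100 proteins. They were taken from the table by symbol alone: SPRR1 to SPRR4, LCE1 to LCE6, S100 genes of the A, B, P and Z kinds, TGM1 to TGM7, PADI1 to PADI4, and the named envelope genes IVL, LOR, FLG, FLG2, HRNR, CNFN, SCEL, EVPL, PPL, SBSN, CDSN, A2ML1 and CSTA. This gave 73 of 18840 lines. One of them, S100PBP, fits the pattern by its name and encodes a protein that binds S100P, not an S100 protein. Expression was measured by poly(A) RNA sequencing in MCF10A, an immortalised, non-tumorigenic human mammary epithelial line, with 1 library for each of 4 stable pBabe retroviral transductions: miR-105, MYC, GFP and the vector without insert, with the GFP and vector lines as controls. The culture medium, DMEM/F12, contained hydrocortisone, cholera toxin, EGF and insulin as well as horse serum. The labels do not say whether a line was 1 clone or a pool. Because no construct had a second library, no difference below has a replicate check, and no p-value is given.

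The cornified envelope is a sheet of cross-linked protein that replaces the plasma membrane of dying keratinocytes. Its scaffold proteins envoplakin and periplakin are laid down first with involucrin, transglutaminases then join them by isopeptide bonds to loricrin, small proline-rich (SPRR) and late cornified envelope (LCE) proteins, and peptidylarginine deiminases (PADI) convert arginines of filaggrin and other substrates to citrulline. Most SPRR, LCE and S100 genes lie side by side on chromosome 1 in the epidermal differentiation complex. Cultured mammary epithelial cells of basal type are known to express part of this programme without forming a stratum corneum.

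Read depth was 6859698 in the miR-105-labelled library, 9795159 in the MYC-labelled library, 14025115 in GFP and 9138429 in vector, so that 1 read was worth between 0.0722 and 0.157 CPM (reads scaled to the size of their library). MYC mRNA stood at 463 CPM in the miR-105-labelled library, 232 in the MYC-labelled library, 198 in GFP and 207 in vector, so the MYC label is not borne out by its own transcript, and each direction below belongs to a library as labelled. The poly(A) table has no value for miR-105 itself. Basal markers KRT5, KRT14, KRT17, TP63, CDH3, ITGB4 and LAMA3 had reads in all 4 libraries and summed to between 7847 and 12250 CPM per library. They did not move as 1 group: 1 of 7 was higher and 3 lower in the miR-105-labelled library, and 2 were higher and 1 lower in the MYC-labelled library, with KRT5 higher and KRT17 lower in both. Of a list of 8 luminal markers, 7 had values. Of these, 0 were higher and 3 lower in the miR-105-labelled library, and 0 were higher and 5 lower in the MYC-labelled library. Over all genes compared, 14.7% were higher and 16.6% lower in the miR-105-labelled library, and 9.03% and 10.4% in the MYC-labelled library. Of 73 members, 34 averaged at least 1 CPM over the 4 libraries and were compared; a further 27 had reads below that level and 12 had none. SPRR2D reached 1 CPM in 1 library only, and 19 of the 34 did so in every library. A gene was counted as higher or lower when it was at least 2-fold away, in the same direction, from both controls, after 0.5 CPM was added to every value. The fold printed for a gene is its plain CPM ratio, and its bounds in parentheses are exact 95% intervals that cover counting error only. In bulk RNA, fewer cells that express a gene and less RNA per cell cannot be told apart.

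In the miR-105-labelled library 8 of the 34 members compared were higher and 8 were lower, or 23.5% each way, against 14.7% higher and 16.6% lower among all 12484 genes (table lines) compared. In the MYC-labelled library 7 members were higher and 13 lower, or 20.6% and 38.2%, against 9.03% and 10.4% of all genes. The median log2 fold of the members was −0.11 in the miR-105-labelled and −0.49 in the MYC-labelled library, where the median of all genes was 0.01 and 0.04. Genes higher in both libraries were S100A2, S100A3, SPRR1A and SPRR1B, and genes lower in both were S100P, PPL, SCEL, TGM1 and TGM2. PADI4 was higher in the miR-105-labelled and lower in the MYC-labelled library. These comparisons share both control libraries, so a value of the controls enters each of them. The share of all genes called in both libraries was not computed, so these joint calls have no background to be read against. S100 and SPRR genes held nearly all of the higher members, and the plakins, transglutaminases and other envelope genes held most of the lower ones. The higher counts include 3 SPRR genes in the miR-105-labelled library (SPRR1A, SPRR1B and SPRR2D) and 2 in the MYC-labelled library (SPRR1A and SPRR1B). They passed the expression filter through libraries where they were high, which favours their calls and raises the higher shares.

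**Figure D1:**
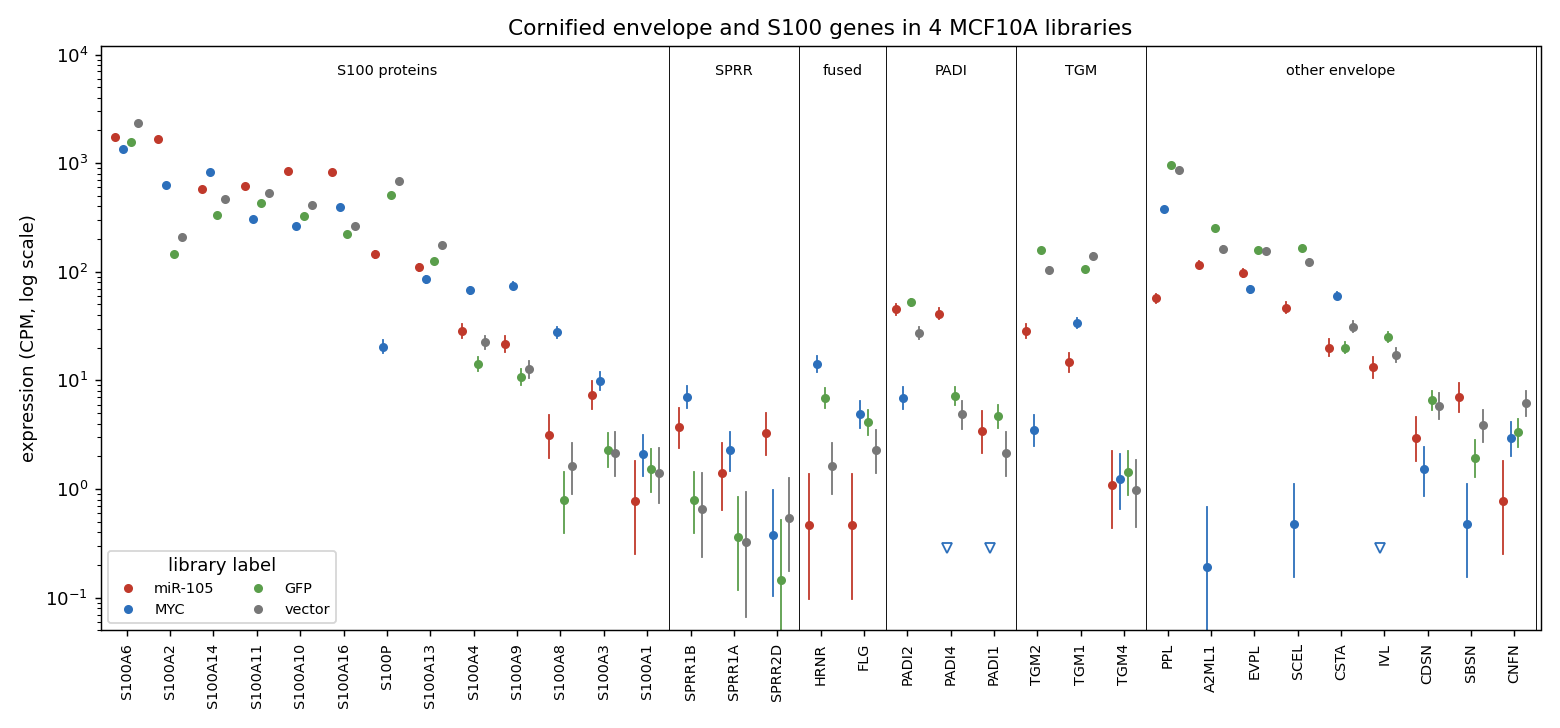
Expression in CPM on a log scale of 33 members compared (S100PBP is not drawn), grouped by family and by library label. Points are single libraries, vertical lines exact 95% Poisson intervals, and open triangles mark 0 reads at the level that 3 reads would give. S100A2 stands at 1669 and 631 CPM in the miR-105-labelled and MYC-labelled libraries, above both controls, while IVL, PADI1 and PADI4 have 0 reads in the MYC-labelled library.

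Sequences of the microRNA and of the promoters are shown beside the groups just described. A link between these sequences and the groups was not tested. The mature 5′ strand of the transduced microRNA, from RefSeq (GRCh38.p14), is printed with its seed, bases 2 to 8, in capitals.
miR-105-5p: uCAAAUGCucagacuccuguggu
The 7-base match to this seed, GCATTTG, was searched in the 3′ untranslated region of the longest GENCODE coding transcript of each gene. It occurred in 2 of the 34 members compared, or 5.88%, and in 16.6% of 12137 genes with a transcript. The median untranslated region was 315 bases long among members and 1276 among all genes, so the shares are not matched for length. Only HRNR, of the 8 members lower in the miR-105-labelled library, had a match; PPL, SCEL, TGM1, TGM2, S100P, FLG and CNFN had none in the transcript searched. The sites are shown with 11 bases either side and the match in capitals.
HRNR, base 195 of its 3′ untranslated region: aagactgttagGCATTTGtgctactttgt
S100PBP, base 1630 of its 3′ untranslated region: gttgcagtctgGCATTTGtgctattgttc
A match is a description of the sequence, and no binding was measured here.

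Promoter windows from 250 bases before to 50 after the start, from RefSeq (GRCh38.p14), were available for 60 of the 73 members. EVPL, CSTA and SPRR2D had no window and were not searched. Neither were PPL, TGM1 and TGM2, which were lower in both libraries. The AP-1 motif TGANTCA, read on both strands, was found in 16 of these 60, against 7.76% of all 27305 windows, and the MYC E-box CACGTG in 5 of 60, against 7.43%. All 5 E-box matches were in LCE1 or LCE2 genes, of which only LCE1E had reads, 1 in the MYC-labelled library and 2 in vector. Motifs of C/EBP, of NF-kB and of the TATA box were searched as well. They were found in 13, 6 and 28 of the 60, against 10.6%, 4.85% and 12% of all windows. A larger share among members than among all windows was therefore not particular to AP-1, and these differences were not tested. The 4 genes higher in both libraries, S100A2, S100A3, SPRR1A and SPRR1B, each held TGANTCA, and so did IVL, SCEL and SBSN, which were lower in the MYC-labelled library, FLG, which was lower in the miR-105-labelled library, and PADI4, which went opposite ways. The windows of S100A10, S100A16, S100A4, S100A8 and S100A9, each higher in 1 of the libraries, held none. Windows of S100P, A2ML1, CNFN, HRNR, PADI1, PADI2 and CDSN, each lower in at least 1 of the libraries, also held none. The windows of the 4 genes higher in both libraries, of PADI4 and of SCEL are shown to let these be compared, with TGANTCA in capitals.
S100A2, chr1:153565795-153566094 on the minus strand: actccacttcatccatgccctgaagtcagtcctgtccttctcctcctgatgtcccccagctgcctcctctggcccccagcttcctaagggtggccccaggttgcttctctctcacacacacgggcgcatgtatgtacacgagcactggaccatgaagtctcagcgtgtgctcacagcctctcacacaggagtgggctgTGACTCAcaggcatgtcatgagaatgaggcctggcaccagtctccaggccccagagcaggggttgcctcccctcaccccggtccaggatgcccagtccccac
S100A3, chr1:153549209-153549508 on the minus strand: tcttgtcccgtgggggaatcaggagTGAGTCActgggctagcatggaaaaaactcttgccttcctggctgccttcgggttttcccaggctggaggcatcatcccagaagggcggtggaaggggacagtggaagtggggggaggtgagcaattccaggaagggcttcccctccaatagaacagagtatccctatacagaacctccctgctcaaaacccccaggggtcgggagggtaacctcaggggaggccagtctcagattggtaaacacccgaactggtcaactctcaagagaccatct
SPRR1A, chr1:152983831-152984130 on the plus strand: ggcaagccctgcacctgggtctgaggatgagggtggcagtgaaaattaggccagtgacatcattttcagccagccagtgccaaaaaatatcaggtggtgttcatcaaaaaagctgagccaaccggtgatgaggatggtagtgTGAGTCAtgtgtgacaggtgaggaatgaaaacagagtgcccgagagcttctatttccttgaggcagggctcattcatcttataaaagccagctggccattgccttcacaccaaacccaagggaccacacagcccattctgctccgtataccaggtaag
SPRR1B, chr1:153030953-153031252 on the plus strand: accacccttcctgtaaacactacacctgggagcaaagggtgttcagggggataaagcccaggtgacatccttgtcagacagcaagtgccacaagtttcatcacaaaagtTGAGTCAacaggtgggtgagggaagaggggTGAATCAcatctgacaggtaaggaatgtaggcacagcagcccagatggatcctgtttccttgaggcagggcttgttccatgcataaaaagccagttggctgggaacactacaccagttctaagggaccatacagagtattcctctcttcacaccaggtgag
PADI4, chr1:17307947-17308246 on the plus strand: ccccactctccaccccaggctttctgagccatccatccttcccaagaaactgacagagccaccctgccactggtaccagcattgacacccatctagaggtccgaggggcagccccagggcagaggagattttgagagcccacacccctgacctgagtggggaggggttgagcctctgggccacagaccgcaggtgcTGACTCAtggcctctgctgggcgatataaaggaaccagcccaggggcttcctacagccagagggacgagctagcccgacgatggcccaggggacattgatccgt
SCEL, chr13:77535456-77535755 on the plus strand: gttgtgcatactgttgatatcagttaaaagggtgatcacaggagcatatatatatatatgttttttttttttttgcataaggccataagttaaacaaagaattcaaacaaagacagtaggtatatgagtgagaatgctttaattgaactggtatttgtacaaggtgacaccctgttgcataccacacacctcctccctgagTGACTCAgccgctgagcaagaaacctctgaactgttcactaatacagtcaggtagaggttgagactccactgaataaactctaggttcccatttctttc
The capitals begin at base −52 of S100A2, −225 of S100A3, −108 of SPRR1A, −141 and −111 of SPRR1B, −54 of PADI4 and −49 of SCEL, counted from the transcript start. The letters alone do not show that a factor bound there.

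Of the scaffold genes, PPL was lower in both libraries and EVPL in the MYC-labelled library. PPL, which encodes periplakin, a plakin that anchors the envelope to intermediate filaments, stood at 56.9 CPM in the miR-105-labelled library, 379.6 in the MYC-labelled library, 966 in GFP and 861 in vector. It was lower by 17.0-fold (15.3 to 18.9) against GFP and 15.1-fold (13.6 to 16.9) against vector in the miR-105-labelled library, and by 2.54-fold (2.46 to 2.64) against GFP and 2.27-fold (2.18 to 2.36) against vector in the MYC-labelled library. Its partner EVPL, envoplakin, had 97.7 CPM in the miR-105-labelled library, 69.1 in the MYC-labelled library, 158 in GFP and 154 in vector. EVPL was below both controls in either library, but passed the 2-fold threshold in the MYC-labelled library only, where it was lower by 2.29-fold (2.10 to 2.49) against GFP and 2.23-fold (2.04 to 2.44) against vector. In the miR-105-labelled library the periplakin transcript was therefore below envoplakin, with 9.13 CPM per kilobase of PPL transcript and 14.8 CPM per kilobase of EVPL transcript, whereas in GFP the values were 155 and 23.9 and in vector 138 and 23.3.

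Involucrin, sciellin and A2ML1 were close to absent from the MYC-labelled library. SCEL, sciellin, a substrate of transglutaminase in the envelope, had 297 reads in the miR-105-labelled library, 5 in the MYC-labelled library, 2304 in GFP and 1134 in vector. Its level was 46.6 CPM in the miR-105-labelled library, 0.474 in the MYC-labelled library, 166 in GFP and 123 in vector, lower by 351-fold (150.2 to 1082) against GFP and 259-fold (110.5 to 798) against vector in the MYC-labelled library and by 3.57-fold (3.16 to 4.05) against GFP and 2.63-fold (2.31 to 3.001) against vector in the miR-105-labelled library. IVL, involucrin, an early cross-linked envelope protein, had 84 reads in the miR-105-labelled library, 0 in the MYC-labelled library, 346 in GFP and 159 in vector. No IVL read among 9795159 allows up to 0.284 CPM (3 reads), and against this floor it was lower by at least 87.9-fold against GFP and at least 60.4-fold against vector. The lower limits of the exact 95% intervals, which are wider than the floor, were 71.1-fold and 48.6-fold. In the miR-105-labelled library IVL was at 13.2 CPM, against 24.99 in GFP and 17.2 in vector, short of 2-fold. A2ML1, a protease inhibitor of the alpha-2-macroglobulin family, had 741 reads in the miR-105-labelled library, 2 in the MYC-labelled library, 3514 in GFP and 1515 in vector. It was lower in the MYC-labelled library by 1339-fold (370.3 to 11059) against GFP and 864-fold (239 to 7139) against vector. It stayed at 116 CPM in the miR-105-labelled library, against 254 in GFP and 164 in vector.

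Smaller envelope genes split by library. SBSN, suprabasin, had 7.06 CPM in the miR-105-labelled library, 0.474 in the MYC-labelled library, 1.95 in GFP and 3.89 in vector; it was lower in the MYC-labelled library by 4.11-fold (1.56 to 13.7) against GFP and 8.21-fold (3.21 to 26.8) against vector, and above both controls, though short of 2-fold against vector, in the miR-105-labelled library. CDSN, corneodesmosin, an adhesive protein of cornified cell junctions, had 2.98 CPM in the miR-105-labelled library, 1.52 in the MYC-labelled library, 6.57 in GFP and 5.84 in vector, and was lower in the MYC-labelled library by 4.33-fold (2.53 to 7.90) against GFP and 3.85-fold (2.17 to 7.20) against vector. CNFN, cornifelin, had 0.784 CPM in the miR-105-labelled library, 2.94 in the MYC-labelled library, 3.32 in GFP and 6.16 in vector. It was lower in the miR-105-labelled library, at 5 reads, by 4.24-fold (1.69 to 13.7) against GFP and 7.86-fold (3.18 to 25.1) against vector. CSTA, cystatin A, a cysteine protease inhibitor of the envelope, stood at 20.1 CPM in the miR-105-labelled library, 60.5 in the MYC-labelled library, 20.0 in GFP and 31.4 in vector. In the MYC-labelled library it was above both controls and missed the 2-fold threshold against vector. LOR, loricrin, the main protein of the epidermal envelope, had 5 reads in all, 4 of them in vector.

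TGM1 and TGM2, the transglutaminases with more than a few CPM, were lower in both libraries. TGM1, the membrane-bound enzyme that cross-links the envelope, stood at 14.7 CPM in the miR-105-labelled library, 33.8 in the MYC-labelled library, 105.03 in GFP and 139.8 in vector. It was lower by 7.12-fold (5.78 to 8.87) against GFP and 9.48-fold (7.69 to 11.8) against vector in the miR-105-labelled library and by 3.10-fold (2.76 to 3.49) against GFP and 4.13-fold (3.67 to 4.66) against vector in the MYC-labelled library. TGM2, the tissue transglutaminase, which acts widely outside the envelope, had 28.4 CPM in the miR-105-labelled library, 3.51 in the MYC-labelled library, 159 in GFP and 104.8 in vector. Here the MYC-labelled library was the lower of the pair, by 45.2-fold (32.7 to 64.4) against GFP and 29.9-fold (21.5 to 42.7) against vector, and the miR-105-labelled library was lower by 5.59-fold (4.80 to 6.54) against GFP and 3.69-fold (3.15 to 4.35) against vector. TGM1 was thus lowest in one library and TGM2 in the other: TGM1 was 2.30-fold (1.82 to 2.91) lower and TGM2 8.09-fold (5.66 to 11.9) higher in the miR-105-labelled than in the MYC-labelled library. TGM4, described in prostate, lay between 0.973 and 1.44 CPM and was called in no comparison. TGM5, an epidermal enzyme under the expression filter, had 7 reads in the miR-105-labelled library, 0 in the MYC-labelled library, 15 in GFP and 9 in vector. TGM3 and TGM6 had 3 and 2 reads, all in vector, and TGM7 had none.

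The 3 deiminases compared were lower in the MYC-labelled library, and 1 of them was higher in the miR-105-labelled library. PADI4, an enzyme that citrullinates histones, had 263 reads in the miR-105-labelled library, 0 in the MYC-labelled library, 100 in GFP and 45 in vector, or 41.2 CPM in the miR-105-labelled library, 0 in the MYC-labelled library, 7.22 in GFP and 4.86 in vector. It was higher by 5.71-fold (4.52 to 7.26) against GFP and 8.48-fold (6.16 to 11.9) against vector in the miR-105-labelled library and lower by at least 25.4-fold against GFP and at least 17.1-fold against vector in the MYC-labelled library, taking the floor of 3 reads, with lower limits of the exact intervals at 20.3-fold and 13.3-fold. PADI1, expressed in epidermis, had 22 reads in the miR-105-labelled library, 0 in the MYC-labelled library, 65 in GFP and 20 in vector, lower by at least 16.5-fold against GFP and at least 7.60-fold against vector in the MYC-labelled library against the same floor, with exact lower limits at 13.05-fold and 5.63-fold. PADI2, the most widely expressed deiminase, had 45.5 CPM in the miR-105-labelled library, 6.92 in the MYC-labelled library, 52.2 in GFP and 27.1 in vector. It was lower in the MYC-labelled library by 7.55-fold (5.93 to 9.74) against GFP and 3.92-fold (3.01 to 5.16) against vector, while the level in the miR-105-labelled library lay between those of the controls. PADI3, known from hair follicles, had at most 2 reads per library. PADI1 to PADI4 are neighbours on chromosome 1, outside the epidermal differentiation complex.

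**Figure D2:**
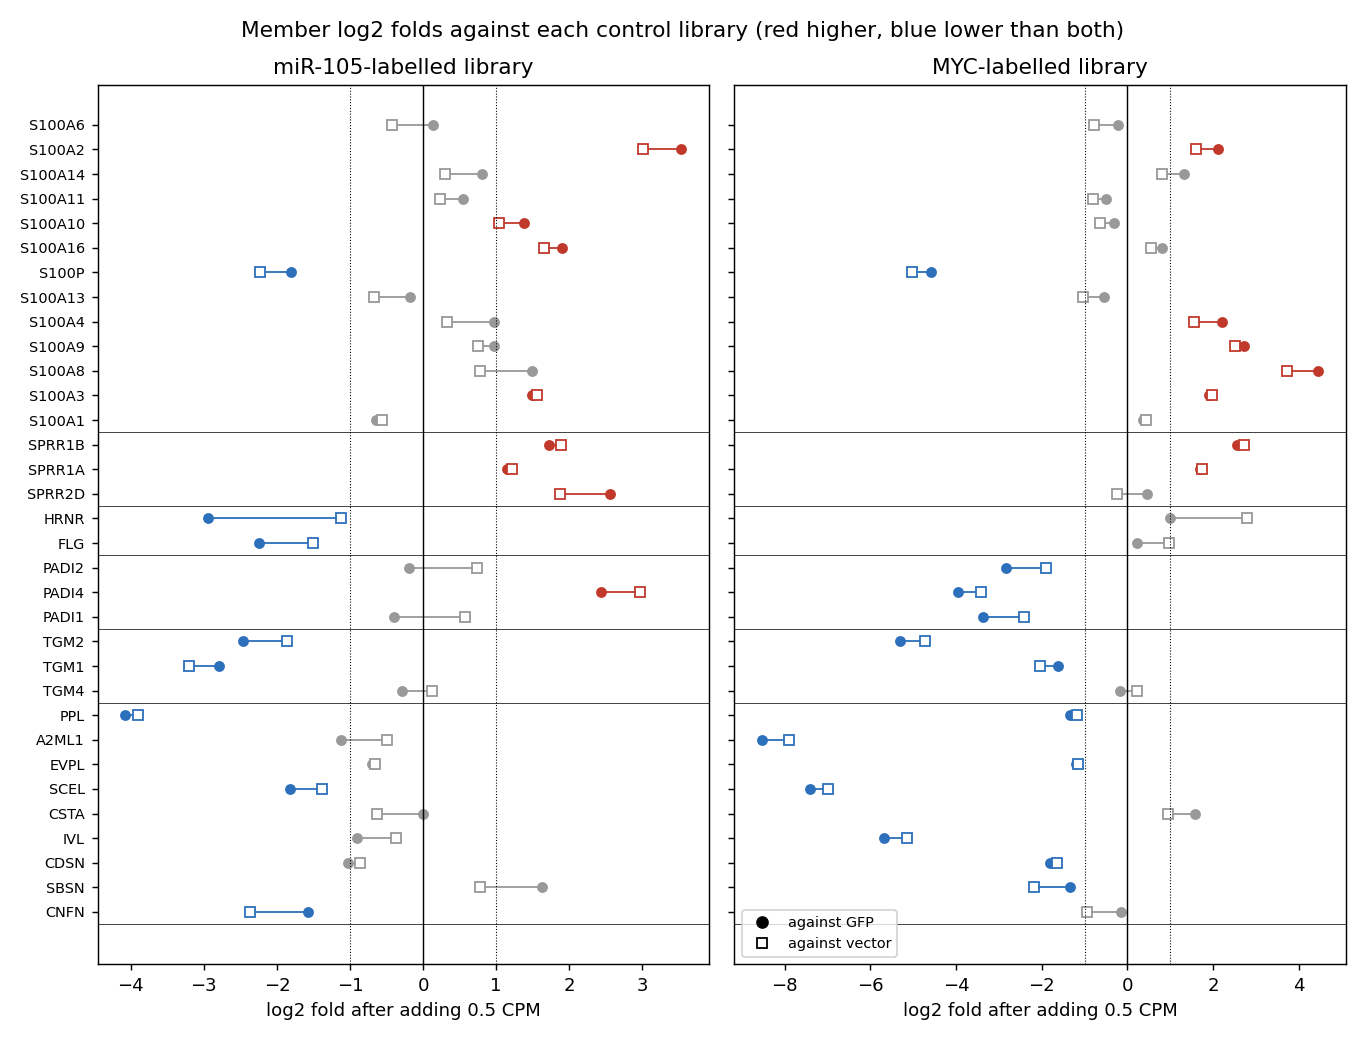
Log2 folds of 33 members compared in the miR-105-labelled (left) and MYC-labelled (right) libraries, after adding 0.5 CPM, with filled circles against GFP and open squares against vector. Red marks genes at least 2-fold higher and blue at least 2-fold lower than both controls, dotted lines stand at 2-fold, and PADI4 is red on the left and blue on the right.

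FLG and HRNR, long proteins with an S100 domain fused to repeats, went down in the miR-105-labelled library. FLG, filaggrin, which aggregates keratin filaments, had 3 reads in the miR-105-labelled library, 52 in the MYC-labelled library, 57 in GFP and 21 in vector. It was lower by 8.75-fold (2.85 to 43.7) against GFP and 4.82-fold (1.44 to 25.3) against vector there, at 3 reads, and in the MYC-labelled library it was called neither higher nor lower. HRNR, hornerin, had 3 reads in the miR-105-labelled library, 150 in the MYC-labelled library, 96 in GFP and 15 in vector. The controls themselves differed for HRNR by 4.28-fold (2.47 to 7.94), higher in GFP, which made it the only member of 34 called between GFP and vector. HRNR was lower in the miR-105-labelled library by 14.7-fold (4.89 to 72.7) against GFP and 3.45-fold (0.975 to 18.6) against vector, the interval against vector reaching below 1. In the MYC-labelled library it was 8.77-fold (5.15 to 16.1) above vector and 2.05-fold (1.58 to 2.68) above GFP, just short of the threshold once 0.5 CPM is added. Without strand information, FLG reads cannot be told from those of the overlapping antisense gene FLG-AS1. FLG2 had at most 4 reads in any library.

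Among S100 genes, S100A2 had the largest difference in the miR-105-labelled library. It encodes a nuclear S100 protein typical of basal epithelial cells, and stood at 1669 CPM in the miR-105-labelled library, 631 in the MYC-labelled library, 144 in GFP and 208 in vector. It was higher by 11.6-fold (11.01 to 12.1) against GFP and 8.03-fold (7.65 to 8.43) against vector in the miR-105-labelled library and by 4.36-fold (4.15 to 4.59) against GFP and 3.03-fold (2.88 to 3.19) against vector in the MYC-labelled library, with both controls well below either. S100A3, a protein of hair cuticle, had 7.37 CPM in the miR-105-labelled library, 9.95 in the MYC-labelled library, 2.31 in GFP and 2.16 in vector. It was higher by 3.19-fold (1.99 to 5.16) against GFP and 3.41-fold (1.98 to 6.07) against vector in the miR-105-labelled library and by 4.31-fold (2.87 to 6.61) against GFP and 4.604-fold (2.84 to 7.84) against vector in the MYC-labelled library. S100A16 stood at 836 CPM in the miR-105-labelled library, 391 in the MYC-labelled library, 224 in GFP and 267 in vector, and was higher in the miR-105-labelled library by 3.74-fold (3.58 to 3.91) against GFP and 3.14-fold (2.99 to 3.29) against vector. S100A10, which forms a complex with annexin A2 at the plasma membrane, had 852 CPM in the miR-105-labelled library, 265 in the MYC-labelled library, 328 in GFP and 414 in vector, and was higher in the miR-105-labelled library by 2.60-fold (2.50 to 2.70) against GFP and 2.06-fold (1.97 to 2.14) against vector. The S100A10 fold against vector passes the threshold by little: with library totals alone or DESeq2 size factors as the scale its call is lost. ANXA2, the annexin partner of S100A10, went the same way, at 3326 CPM in the miR-105-labelled library, 603 in the MYC-labelled library, 1276 in GFP and 1430.3 in vector; it was higher by 2.61-fold (2.56 to 2.66) against GFP and 2.33-fold (2.28 to 2.38) against vector in the miR-105-labelled library and lower by 2.11-fold (2.05 to 2.18) against GFP and 2.37-fold (2.30 to 2.44) against vector in the MYC-labelled library.

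S100A8, S100A9 and S100A4 were higher in the MYC-labelled library. S100A8 and S100A9 form calprotectin, a zinc- and manganese-binding antimicrobial dimer abundant in neutrophils and induced in stressed epithelium. S100A8 had 20 reads in the miR-105-labelled library, 292 in the MYC-labelled library, 11 in GFP and 15 in vector, and was higher by 34.8-fold (19.2 to 70.6) against GFP and 17.1-fold (10.2 to 30.9) against vector in the MYC-labelled library. S100A9 stood at 21.6 CPM in the miR-105-labelled library, 74.6 in the MYC-labelled library, 10.8 in GFP and 12.6 in vector, higher by 6.89-fold (5.78 to 8.26) against GFP and 5.90-fold (4.85 to 7.23) against vector. In the miR-105-labelled library both were above the controls, and neither passed 2-fold against both. S100A9 was above by 1.998-fold (1.57 to 2.53) against GFP and 1.71-fold (1.33 to 2.21) against vector. S100A8 was above by 3.95-fold (1.80 to 9.12) against GFP and 1.93-fold (0.941 to 4.06) against vector, the interval against vector reaching below 1. S100A12, the third of the myeloid S100 genes, had 2 reads, both in the MYC-labelled library. The 10 markers of myeloid and other immune cells summed to 68.2 CPM in the miR-105-labelled library, 33.8 in the MYC-labelled library, 225 in GFP and 201 in vector, and PTPRC, LYZ, MPO, TYROBP and FCGR3B had 0 reads in the MYC-labelled library, where S100A8 was highest. ITGAM, an integrin of myeloid cells on the same list, had 0 reads in the miR-105-labelled library, 23 in the MYC-labelled library, 0 in GFP and 2 in vector, while ITGB2 and CSF1R were lower in the MYC-labelled library. The part of other cell types in the S100A8 and S100A9 levels was not tested. S100A4, a motility-associated protein also abundant in fibroblasts, had 28.4 CPM in the miR-105-labelled library, 67.5 in the MYC-labelled library, 14.2 in GFP and 22.5 in vector, higher by 4.74-fold (4.05 to 5.58) against GFP and 3.002-fold (2.57 to 3.52) against vector in the MYC-labelled library. The 8 fibroblast markers summed to 118, 161, 211 and 216 CPM in the same order of libraries, with COL3A1, PDGFRA and COL1A2 at 0 reads in the MYC-labelled one. The list went both ways there: DCN stood at 141 CPM in the MYC-labelled library, against 69.4 in GFP and 117 in vector, and COL1A1 at 16.5 against 14.4 and 12.5, whereas FAP stood at 2.56 against 126 and 85.0. Their part in the S100A4 level was not tested.

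S100P was the 1 S100 gene lower than both controls by the 2-fold threshold, in both libraries. It encodes a calcium-binding protein first described in placenta, whose gene lies on chromosome 4, apart from the cluster. S100P stood at 144 CPM in the miR-105-labelled library, 20.5 in the MYC-labelled library, 507 in GFP and 680.2 in vector. It was lower by 3.51-fold (3.28 to 3.76) against GFP and 4.71-fold (4.39 to 5.05) against vector in the miR-105-labelled library and by 24.8-fold against GFP and 33.2-fold against vector in the MYC-labelled library. The gene of its binding protein, S100PBP, had 26.2 CPM in the miR-105-labelled library, 40.2 in the MYC-labelled library, 34.5 in GFP and 35.9 in vector, and was called in no comparison.

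The remaining S100 genes compared, S100A1, S100A6, S100A11, S100A13 and S100A14, passed 2-fold against both controls in neither library. S100A6, calcyclin, was the most abundant member, with 1735 CPM in the miR-105-labelled library, 1349.7 in the MYC-labelled library, 1576 in GFP and 2324 in vector. S100A14 had 577 CPM in the miR-105-labelled library, 826 in the MYC-labelled library, 331 in GFP and 469.9 in vector, and was above both controls in the MYC-labelled library by 2.49-fold (2.40 to 2.58) against GFP and 1.76-fold (1.69 to 1.82) against vector. S100A11 had 623 CPM in the miR-105-labelled library, 305 in the MYC-labelled library, 429 in GFP and 531 in vector, below both controls in the MYC-labelled library and above both in the miR-105-labelled one. S100A13 had 109.9 CPM in the miR-105-labelled library, 84.9 in the MYC-labelled library, 125 in GFP and 176 in vector, below both controls in both libraries. S100A1, with 5 reads in the miR-105-labelled library, 22 in the MYC-labelled library, 21 in GFP and 13 in vector, overlaps exons of S100A13 on the other strand, so its few reads may belong to either gene. Per kilobase of the longest annotated coding transcript, S100A6 led in every library, at 2578 CPM per kilobase in the miR-105-labelled, 2005 in the MYC-labelled, 2341 in the GFP and 3453 in the vector library. S100A2 followed in the miR-105-labelled library at 1673, S100A14 in the MYC-labelled library at 678, and S100A11 in GFP and vector at 721 and 895. S100A7, psoriasin, had 7 reads and S100A7A 1, all in the miR-105-labelled library, S100A5 had between 2 and 5 reads per library, S100Z 1 read in each control, and S100B and S100A7L2 none.

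SPRR genes, which encode short proline-rich bridges between other envelope proteins, were low in every library, and SPRR1A and SPRR1B were higher in both the miR-105-labelled and the MYC-labelled library. SPRR1B had 24 reads in the miR-105-labelled library, 75 in the MYC-labelled library, 11 in GFP and 6 in vector. It was higher by 4.74-fold (2.23 to 10.7) against GFP and 5.80-fold (2.31 to 17.4) against vector in the miR-105-labelled library and by 8.95-fold (4.73 to 18.7) against GFP and 10.96-fold (4.81 to 30.8) against vector in the MYC-labelled library. SPRR1A had 9 reads in the miR-105-labelled library, 24 in the MYC-labelled library, 5 in GFP and 3 in vector. Its folds were 3.91-fold (1.18 to 14.8) against GFP and 4.35-fold (1.09 to 24.99) against vector in the miR-105-labelled library and 6.30-fold (2.36 to 21.1) against GFP and 7.02-fold (2.13 to 36.4) against vector in the MYC-labelled library. Both genes were below 1 CPM in GFP and vector, SPRR1A at 0.361 and 0.324 and SPRR1B at 0.795 and 0.649. They passed the expression filter through the miR-105-labelled and MYC-labelled libraries, where they were high, which favours their calls. SPRR1A and SPRR1B share sequence, and their reads could be split between them by the counting. Taken as 1 sum of 33, 99, 16 and 9 reads in the same order of libraries, they were higher by 4.48-fold (2.40 to 8.71) against GFP and 5.32-fold (2.49 to 12.6) against vector in the miR-105-labelled library, and by 8.12-fold (4.76 to 14.8) and 9.65-fold (4.88 to 21.7) in the MYC-labelled library.

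The SPRR2 genes, near-identical copies, had their reads mainly in the miR-105-labelled library. SPRR2D had 21 reads in the miR-105-labelled library, 4 in the MYC-labelled library, 2 in GFP and 5 in vector, and was called higher in the miR-105-labelled library. It reached 1 CPM in that library only and so passed the expression filter through the library where it was high, which favours the call. SPRR2A had 20 reads in the miR-105-labelled library, 3 in the MYC-labelled library, 0 in GFP and 5 in vector. With SPRR2B, SPRR2E, SPRR2F and SPRR2G, which had at most 8 reads in any library, the sum was 62 reads in the miR-105-labelled library, 9 in the MYC-labelled library, 2 in GFP and 22 in vector. Summed SPRR2 expression was 67.3-fold (17.9 to 568) above GFP and 4.09-fold (2.48 to 6.99) above vector in the miR-105-labelled library, whereas in the MYC-labelled library it was 5.91-fold (1.22 to 56.2) above GFP and 2.79-fold (1.23 to 6.88) below vector. The GFP control was 16.5-fold (4.05 to 144) below the vector control. The vector library had 3558 genes with 1 to 5 reads, against 2083 in the deeper GFP library, and what part this has in the low counts of SPRR2, LOR, TGM3 and TGM6 was not tested. SPRR3 and SPRR4 had 5 and 1 reads in all.

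LCE genes, which encode late substrates of the epidermal envelope, were nearly silent. The 18 members had 1 read in the miR-105-labelled library, 18 in the MYC-labelled library, 0 in GFP and 4 in vector, and 9 of them had no read in any library. Reads in the MYC-labelled library fell on 7 genes, with LCE1B and LCE3D at 5 reads each. None reached 1 CPM on average, so no fold is given.

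**Figure D3:**
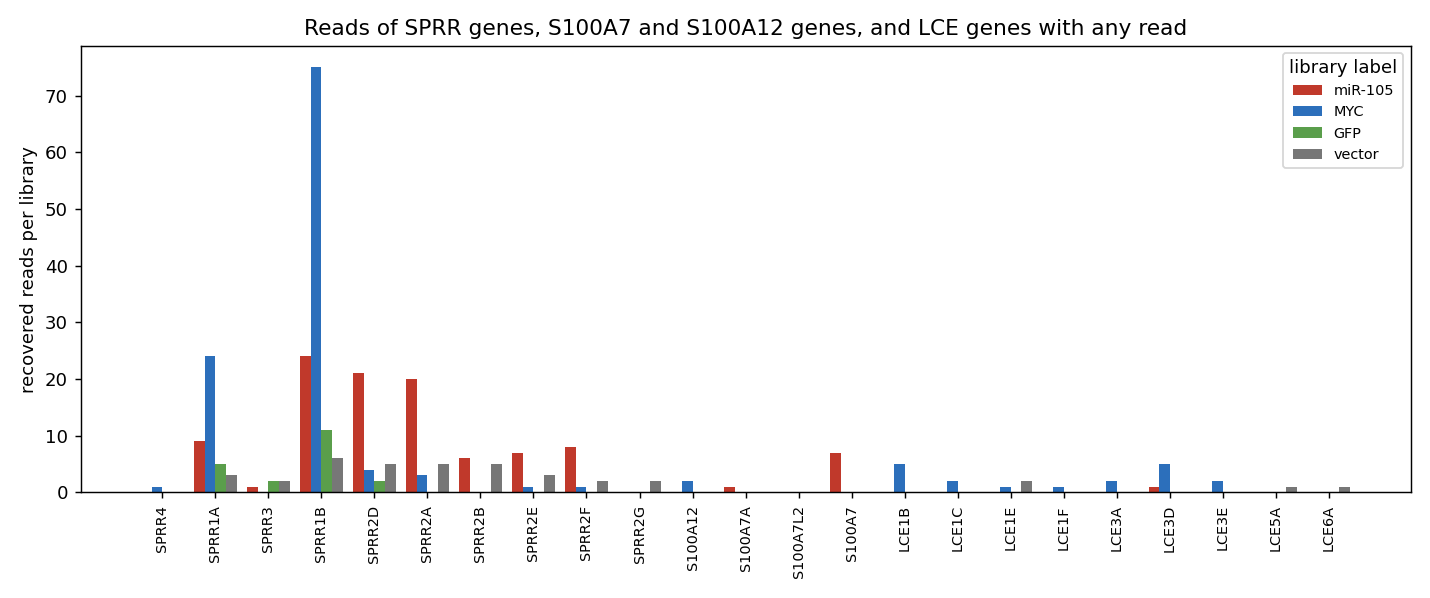
Recovered reads per library, not scaled for depth, of the SPRR genes, the S100A7 and S100A12 genes, and the LCE genes with any read. SPRR1A and SPRR1B are highest in the MYC-labelled library, at 24 and 75 reads, while SPRR2A and SPRR2D are highest in the miR-105-labelled library, at 20 and 21 reads.

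By position, all higher members but PADI4 lay in the chromosome 1 cluster. All S100A and SPRR members lie in this cluster, so position and gene family cannot be told apart here. In GENCODE release 29 (GRCh38; the deposited counts were made on hg19) the cluster ran from S100A10 to S100A1 at chr1:151982915-153632039 and held 50 of the 73 members, 18 of which were compared. Of these 18, 7 were higher and 2 lower in the miR-105-labelled library, and 7 were higher and 1 lower in the MYC-labelled library. The higher ones include SPRR1A and SPRR1B in both libraries and SPRR2D in the miR-105-labelled library. Their passing of the filter through libraries where they were high favours these calls. Of the 16 compared members elsewhere in the genome, 1 was higher and 6 lower in the miR-105-labelled library, and 0 were higher and 12 lower in the MYC-labelled library. Over all genes, 14.7% were higher and 16.6% lower in the miR-105-labelled library, and 9.03% and 10.4% in the MYC-labelled library, and the difference between the positions was not tested. The median log2 fold was 0.75 and 0.87 inside the cluster, and −0.74 and −1.79 outside it, in the miR-105-labelled and MYC-labelled library. Neighbours in the cluster did not all move together: S100A2 and S100A3 were higher in both libraries, and S100A6, which lies close to them, was called in neither. IVL, with 0 reads in the MYC-labelled library, lies between the LCE genes and SPRR4.

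**Figure D4:**
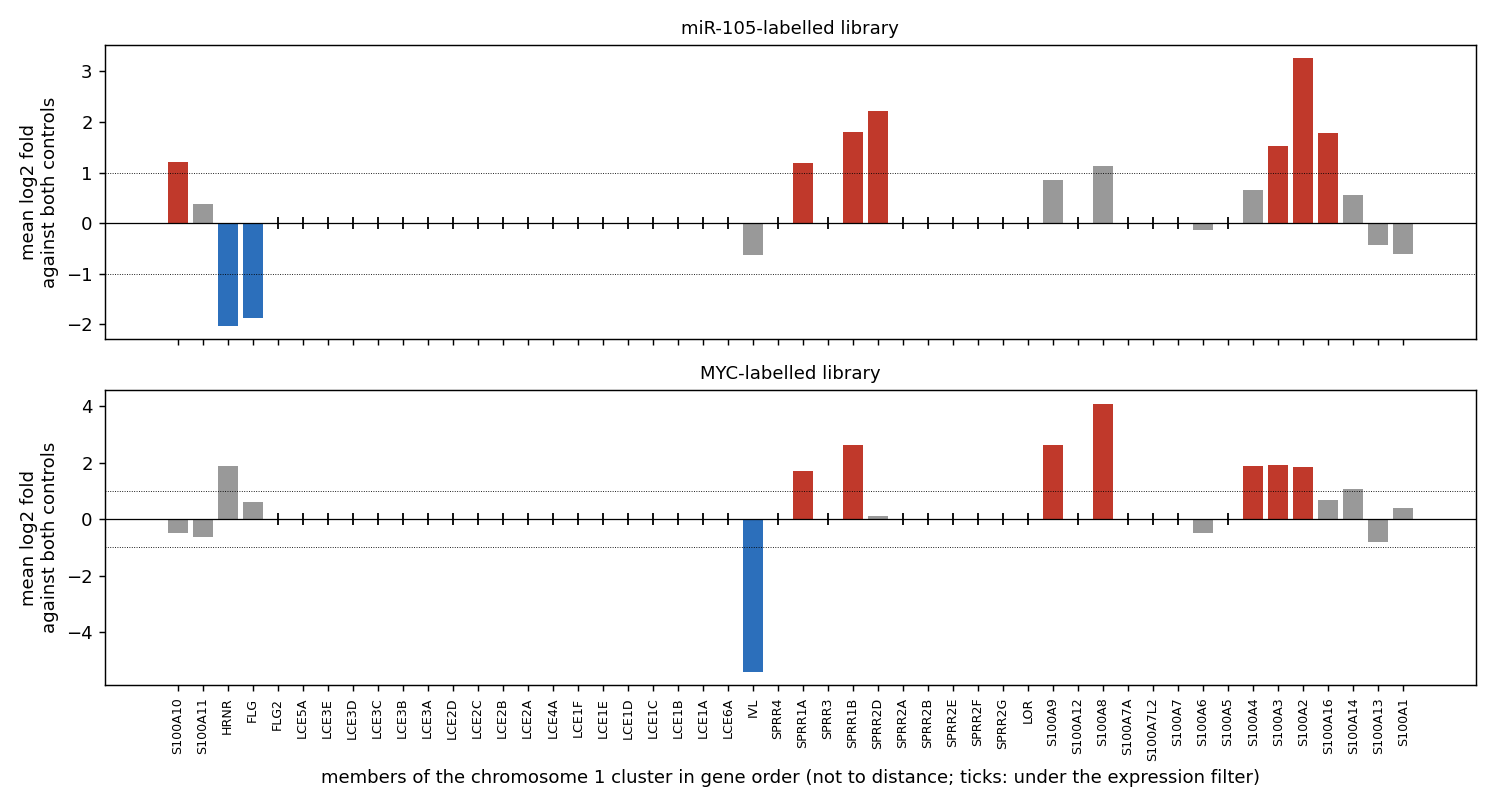
Mean log2 fold against both controls, after adding 0.5 CPM, for the 50 members of the chromosome 1 cluster in their order along the chromosome, with the miR-105-labelled library above and the MYC-labelled library below. Red bars are at least 2-fold higher and blue bars at least 2-fold lower than both controls, dotted lines stand at 2-fold, and ticks mark the 32 members under the expression filter; IVL is the blue bar of the lower panel.

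Compared directly, 14 of the 34 members were higher and 10 lower in the miR-105-labelled than in the MYC-labelled library, or 41.2% and 29.4%, against 19.0% and 19.8% of all genes. With library totals alone as the scale, 12 were higher and 11 lower, and over all genes 1837 were higher and 3004 lower, against 2371 and 2478 with TMM. The higher side held PADI1, PADI2 and PADI4, with IVL (at least 46.3-fold, against the floor), A2ML1 (613-fold), SCEL (98.3-fold), SBSN (14.9-fold), TGM2, S100P, S100A2, S100A10, S100A11, S100A16 and SPRR2D. The A2ML1 ratio rests on 2 reads in the MYC-labelled library, with an interval of 169 to 5071. The lower side held FLG, HRNR, PPL, TGM1, CNFN, CSTA, S100A1, S100A4, S100A8 and S100A9, with PPL 6.67-fold (5.99 to 7.44) and S100A8 8.83-fold (5.61 to 14.7) lower. The S100A1 ratio rests on 5 reads in the miR-105-labelled and 22 in the MYC-labelled library. It was 2.66-fold (0.983 to 8.99) lower, the interval reaching below 1. S100A2, higher than the controls in both, was 2.65-fold (2.57 to 2.73) higher in the miR-105-labelled library. Between the controls, 1 of 34 members was higher in GFP and 0 lower, or 2.94% and 0%, against 3.06% and 1.03% of all genes. Over all genes that was 382 higher and 128 lower with TMM, 306 and 168 with DESeq2 size factors, and 310 and 191 in the values as deposited.

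Genes that work beside these proteins were read from lists that overlap no member. Their counts stand against 14.7% higher and 16.6% lower of all genes in the miR-105-labelled library, and 9.03% and 10.4% in the MYC-labelled library, and in lists this short several shares lie near these. Of 17 regulators of epidermal differentiation compared, 0 were higher and 9 lower in the miR-105-labelled library, and 1 was higher and 5 lower in the MYC-labelled library. ELF3, an ETS factor that activates SPRR genes, had 46.3 CPM in the miR-105-labelled library, 302 in the MYC-labelled library, 510.1 in GFP and 561 in vector, and was lower in the miR-105-labelled library. GRHL1, a grainyhead factor of epidermis, had 5.80 CPM in the miR-105-labelled library, 2.28 in the MYC-labelled library, 42.9 in GFP and 23.6 in vector, lower in both libraries, and GRHL2 had 0 reads in the MYC-labelled library, against 155 CPM in GFP and 113 in vector. CEBPA, a C/EBP factor, was the 1 of these 17 higher in the MYC-labelled library, standing at 10.9 CPM, against 2.38 in GFP and 2.05 in vector.

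Of 16 cornification proteases and inhibitors compared, 2 were higher and 3 lower in the miR-105-labelled library, and 1 was higher and 8 lower in the MYC-labelled library. CTSV, a lysosomal cysteine protease of epidermis, was higher in one library and lower in the other, at 179 CPM in the miR-105-labelled library, 0.474 in the MYC-labelled library, 28.3 in GFP and 22.8 in vector. KLK5, a kallikrein that cleaves cornified cell junctions, had 75.6 CPM in the miR-105-labelled library, 0.190 in the MYC-labelled library, 447 in GFP and 373 in vector, and CST6, cystatin M, which inhibits CTSV, had 10.2 CPM in the miR-105-labelled library, 0.474 in the MYC-labelled library, 43.6 in GFP and 17.9 in vector. Of 12 keratins of suprabasal or activated epithelium compared, 3 were higher and 5 lower in the miR-105-labelled library, and 0 were higher and 3 lower in the MYC-labelled library. The 3 higher were KRT6A, KRT6B and KRT6C, near-identical wound keratins that can share reads, with KRT6B at 2167 CPM in the miR-105-labelled library, 605 in the MYC-labelled library, 889.9 in GFP and 797 in vector. KRT80 was lower in the MYC-labelled library, at 2.56 CPM, against 163 in GFP and 80.6 in vector.

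Of 12 genes of barrier lipids compared, 0 were higher and 4 lower in the miR-105-labelled library, and 2 were higher and 5 lower in the MYC-labelled library. AQP3, a glycerol and water channel, went opposite ways, at 2.82 CPM in the miR-105-labelled library, 122 in the MYC-labelled library, 16.4 in GFP and 20.4 in vector. Of 9 desmosomal genes compared, 0 were higher and 1 lower in the miR-105-labelled library, PERP, and 2 were higher and 0 lower in the MYC-labelled library, DSC3 and PKP1. Of 14 receptors and partners of S100 proteins, 3 were higher and 2 lower in the miR-105-labelled library, and 1 was higher and 5 lower in the MYC-labelled library. TLR4, a receptor known for binding calprotectin, was lower in both libraries. It had 5.33 CPM in the miR-105-labelled library, 1.23 in the MYC-labelled library, 28.97 in GFP and 14.1 in vector. AGER, the receptor RAGE, which also binds calprotectin, was lower in the miR-105-labelled library only. Its level was 1.73 CPM in the miR-105-labelled library, 9.39 in the MYC-labelled library, 5.13 in GFP and 9.08 in vector. CACYBP, which binds S100A6, had 208 CPM in the miR-105-labelled library, 81.3 in the MYC-labelled library, 51.9 in GFP and 56.6 in vector. Of the genes of the chromosome 1 complex outside the member list, only TCHH, trichohyalin, reached 1 CPM on average, at 0.314 CPM in the miR-105-labelled library, 1.52 in the MYC-labelled library, 2.09 in GFP and 1.73 in vector.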

How the data were processed

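Poly(A) RNA from 4 MCF10A lines was sequenced, with 1 library each. Per the submitters' processing notes, TopHat2 and edgeR were used with the human build hg19; tool versions, the read counter, the annotation and whether strand was used were not given in the sources used here. Per gene symbol, the authors deposited a signal adjusted for library size, as edgeR does in its pseudo-counts. Undoing this adjustment with a dispersion of 0.0553 returned whole reads for 100% of each library's 18859 values, within a relative tolerance of 1e-05. The inversion and the calls were tested on simulated data. After 19 repeat lines were dropped, 18840 remained.

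CPM used edgeR 4.0.16 TMM factors (R 4.3.3) on library totals. Genes averaging 1 CPM or more were compared, log2 folds had 0.5 CPM added, and a call needed 2-fold against both controls. Intervals are exact conditional binomial (ratios) or Poisson (levels) at 95%, from scipy 1.17.1, and cover counting error only, because without molecular identifiers PCR copies count as separate reads. Where a library had 0 reads, its floor of 3 reads gave a lower bound on the fold. With 1 library a group no test was the main result. Alternatives included DESeq2 1.42.0 size factors and an edgeR quasi-likelihood test with the controls pooled.

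The members and gene lists were chosen with earlier results of these data known. Every member averaging 1 CPM is named with its level; of each other list, at most the 2 largest called changes in each direction are named. ANXA2 and KRT6A, which complete counts of 3, were named after their values were seen, and so were the summed SPRR1 and SPRR2 reads. One gene was taken out of the list of regulators after the values were seen and is not reported here.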

Additional observations from a re-analysis of the deposited data

Results flagged for a closer look

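PADI4 was flagged because its difference from the controls had opposite directions in the miR-105-labelled and MYC-labelled libraries. Its mean log2 fold against both controls was 2.70 in the miR-105-labelled and −3.69 in the MYC-labelled library, a difference of 6.38 on the log2 scale after adding 0.5 CPM. The difference was not tested, since each label had 1 library.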

How the results depend on the processing

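No paired analysis was possible because each construct had 1 library, and no library could be left out. Leaving 1 control out is the nearest check. Against GFP alone 10 members were higher and 10 lower in the miR-105-labelled library, and 9 and 13 in the MYC-labelled library. Against vector alone the counts were 8 and 8, and 8 and 14. With GFP alone, 38.8% of all genes in the miR-105-labelled and 26.6% in the MYC-labelled library were called in either direction. With vector alone, these shares were 38.9% and 25.6%. Library totals alone as the scale moved the median of all genes to 0.14 in the MYC-labelled and to −0.09 in the miR-105-labelled library. They left 7 members higher and 8 lower in the miR-105-labelled library, and 9 and 13 in the MYC-labelled library. Of all genes, 31.0% in the miR-105-labelled and 19.7% in the MYC-labelled library were called in either direction on that scale. No call of a single member changed sign under the alternatives compared gene by gene, which leave out the edgeR test. A filter at 5 CPM left 24 members to compare, of which 5 were higher in the miR-105-labelled library. The higher calls it took out there were those of SPRR1A, SPRR1B and SPRR2D, and no SPRR gene passed this filter. With 2 CPM added to each value, 5 members were lower in the miR-105-labelled library. Over all genes, the filter at 5 CPM left 1687 higher and the added 2 CPM left 1637 lower. A 4-fold threshold left 2 higher and 2 lower in the miR-105-labelled library, and 3 and 7 in the MYC-labelled library. It left 4 lower in the miR-105-labelled than in the MYC-labelled library, and 0 higher in GFP than in vector. Over all 12484 genes compared, that threshold called 565 higher and 786 lower in the miR-105-labelled library, and 391 and 499 in the MYC-labelled library. In either direction that was 10.8% and 7.13% of genes. It called 1061 genes lower in the miR-105-labelled than in the MYC-labelled library, and 14 higher in GFP than in vector. Without a filter on low values the median log2 fold of members was 0 in the MYC-labelled library. Without it, 2 members were lower in GFP than in vector, and so were 389 of all genes. A pseudocount of 0.1 CPM gave 2 higher and 1 lower in GFP, and a 1.5-fold threshold 6 and 6. Over all genes these counts were 468 and 264, and 1617 and 873. The edgeR test with pooled controls has 1 residual degree of freedom and compares these libraries only. It rests on 1 library for each label, so its counts are not given. Over single members, library totals alone moved 3 calls past and 3 below the threshold, of 136 gene and comparison pairs. Genes with few reads, such as the SPRR, LCE and S100A7 genes, are limited by depth.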
